A study of Mus musculus with 9 samples.

Results

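The genes described here are 10 immediate early genes: Fos, Fosb, Jun, Junb and Jund of the AP-1 family, the zinc finger factors Egr1 and Egr2, and Ier2, Atf3 and Nr4a1. They were chosen by name and not by a rule on measured values, although earlier results of these data were known. All 10 were present among the 24060 named genes of the count table. RNA was sequenced from LSKs, the Lin-lo Sca1+ Kit+ bone marrow fraction that holds haematopoietic stem cells and multipotent progenitors. The LSKs were CD45.2 cells sorted from lethally irradiated CD45.1 recipients of control, NHD13 or NHD13/MSI2 bone marrow, all on a C57BL/6 background, after 3 months of doxycycline, and the labels give an age of 4 months. Control marrow came from C57BL/6 mice without a transgene. NHD13 marrow carried the NUP98-HOXD13 fusion, a driver of myelodysplastic syndrome, from the Vav promoter, which is active throughout the blood system. NHD13/MSI2 marrow carried in addition a doxycycline-inducible MSI2 allele at Col1A1 with the rtTA activator at ROSA26, so the transgenes were present in all blood cells and not only in LSKs. MSI2 is an RNA-binding protein. The groups held 3 control, 2 NHD13 and 4 NHD13/MSI2 libraries. The labels do not say that the libraries of a group came from separate mice, so the p-values measure the spread between these libraries, which may in part be technical.

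Immediate early genes are transcribed within minutes of a signal, without new protein synthesis, because the factors that switch them on are already in place. FOS and JUN proteins dimerize through leucine zippers to form AP-1, which binds DNA and sets the expression of later genes. EGR1, a zinc finger factor, restrains the proliferation of haematopoietic stem cells in mice, and NR4A1, an orphan nuclear receptor, is linked to their quiescence. The same genes are also switched on when tissue is dissociated and cells are sorted.

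The labels and the markers set limits on all comparisons below. Totals lay between 19242153 and 23013493 counts, so that 3 counts corresponded to 0.13 to 0.156 CPM (counts scaled to a common library total) before the TMM factors were applied. The genes of the LSK list (Kit and Ly6a for the sorting markers Kit and Sca1, with Cd34, Flt3 and Ptprc) were present in every library. Hoxd13, the partner gene of the fusion, had 0 counts in each control and 13 to 25 counts in each of the other libraries. Msi2 was at 77.1 to 241 CPM in the libraries labelled NHD13/MSI2, at 111 and 139 CPM in NHD13 and at 223 to 316 CPM in the controls, so its counts did not set the libraries labelled NHD13/MSI2 above the others. Whether reads of the MSI2 transgene were counted on this symbol is not given in the sources used here, so Msi2 does not check the labels. Control replicates 1 and 3 had Xist, and the other 7 libraries had the Y-linked genes, so controls and the other groups differed in donor sex as well. In the labels, the name of control replicate 1 carries the word bulk and follows the numbered scheme of the NHD13 and NHD13/MSI2 libraries, whereas the names of control replicates 2 and 3 follow another scheme and carry MPP and HSC. NHD13/MSI2 replicate 4 stood apart from its group, with a chi-square per gene of 354 to 374 against the other 3 libraries, which differed from each other by 17 to 29.3. Its median log2 difference from them ran from -0.25 in the quartile of genes with the shortest transcripts to 0.16 in the quartile with the longest.

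The 250 bases before the transcription start are shown for Fos, Fosb, Jun and Nr4a1, the 4 members with the largest differences among the controls that have a window in the RefSeq table on GRCm38.p6, since signals reach these genes partly through cAMP response elements (CREs) near the start. The windows are chr12:85473640-85473889 on the plus strand for Fos, chr7:19310046-19310295 on the minus strand for Fosb, chr4:95052223-95052472 on the minus strand for Jun and chr15:101266596-101266845 on the plus strand for Nr4a1, each 5′ to 3′ along the gene. Capitals mark the core of the CRE, TGACG, or CGTCA where it lies on the other strand.
Fos: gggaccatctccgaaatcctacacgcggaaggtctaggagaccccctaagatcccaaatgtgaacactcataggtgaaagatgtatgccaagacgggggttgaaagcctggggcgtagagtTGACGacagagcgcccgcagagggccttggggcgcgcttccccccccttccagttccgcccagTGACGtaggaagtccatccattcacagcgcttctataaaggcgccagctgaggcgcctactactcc
Fosb: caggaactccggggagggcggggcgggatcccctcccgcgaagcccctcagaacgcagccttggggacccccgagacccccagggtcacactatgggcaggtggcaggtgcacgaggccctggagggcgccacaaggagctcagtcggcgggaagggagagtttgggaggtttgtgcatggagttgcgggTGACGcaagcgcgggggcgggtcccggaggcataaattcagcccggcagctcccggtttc
Jun: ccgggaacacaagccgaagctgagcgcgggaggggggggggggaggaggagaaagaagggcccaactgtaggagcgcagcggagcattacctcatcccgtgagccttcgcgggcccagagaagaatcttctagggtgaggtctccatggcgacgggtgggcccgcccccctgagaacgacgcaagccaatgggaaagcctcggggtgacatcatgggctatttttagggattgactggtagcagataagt
Nr4a1: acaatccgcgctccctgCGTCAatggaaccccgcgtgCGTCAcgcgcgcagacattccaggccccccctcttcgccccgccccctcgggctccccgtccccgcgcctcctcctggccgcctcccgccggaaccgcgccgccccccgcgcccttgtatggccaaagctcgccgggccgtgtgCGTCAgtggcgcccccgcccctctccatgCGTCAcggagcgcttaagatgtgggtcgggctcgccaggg
Of the 8 members with a window, Fos, Fosb, Junb, Egr2, Atf3 and Nr4a1 held this core and Jun and Jund did not, while 17.8% of all 32851 windows of this length held it on either strand. The Jund window ended at position 70697738 of chr8, upstream of the gene start at 70698949 in GENCODE M21, so it may not be the promoter of that gene. Egr2 had 5 windows, whereas the shares of all windows are counted per window. Fos had matches at -129 to -125 and at -66 to -62 from the start, and Nr4a1 had 4 matches. The full element TGACGTCA, which contains the core on both strands, was in no window of a member and in 1.55% of all windows. The AP-1 motif TGANTCA was likewise in none of them and in 6.75% of all windows. The EGR motif GCGNGGGCG was found before Fosb and Nr4a1 and in 4.7% of all windows. The CArG box of serum response factor was found only before Egr2 among these 8 genes, against 1.47% of all windows. These are exact matches of letters in short windows and not measured binding. Sites outside the 250 bases, or with variant letters, were not searched, so a missing match does not mean that a gene lacks the element.

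Fos, the FOS subunit of AP-1, was the member with the widest range. Control replicate 1 held 531 CPM of Fos and control replicates 2 and 3 held 43.9 and 58.9 CPM. The NHD13 libraries held 26.0 and 7.31 CPM, against 16.9, 4.14, 4.80 and 3.57 CPM in NHD13/MSI2 replicates 1 to 4. Every control was above every NHD13 and NHD13/MSI2 library, and NHD13/MSI2 overlapped NHD13. These levels rested on 12988 counts in control replicate 1 and on 55 counts in NHD13/MSI2 replicate 4. Fos fell in NHD13/MSI2 against control, with a log2 fold change of -4.84 (SE 1.01) and an adjusted p of 0.00849 by edgeR's quasi-likelihood test, adjusted over 13355 genes by the Benjamini-Hochberg method. The threshold was an adjusted p under 0.01. In NHD13 against control the difference of -3.66 (SE 1.27) did not pass by edgeR's quasi-likelihood test (adjusted p = 0.213), and neither did that of -1.18 (SE 1.02) in NHD13/MSI2 against NHD13 (adjusted p = 0.569). In bulk RNA, fewer cells expressing a gene and less of its RNA per cell cannot be told apart.

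The call on Fos in NHD13/MSI2 against control depended on single libraries, whereas its direction was the same in every setting run. Without control replicate 1, which had 10.4-fold the Fos level of the other controls, the log2 fold change of NHD13/MSI2 against control was -2.80 (SE 0.69) and did not pass (adjusted p = 0.0305, edgeR's quasi-likelihood test). The call was also lost, with changes between -5.29 and -4.62, when control replicate 3, either NHD13 library or NHD13/MSI2 replicate 2, 3 or 4 was left out (adjusted p between 0.0105 and 0.0288, edgeR). In a fit chosen after seeing the data, in which replicate 1 of each of the 3 groups was left out, Fos was at -3.58 (SE 0.27) with an adjusted p of 0.00203 by edgeR's quasi-likelihood test. With only the 7 libraries of the numbered scheme, where control replicate 1 was the lone control and was assumed to vary like the other groups, the change was -6.16 (SE 0.83) with an adjusted p of 0.012 (edgeR). With only the libraries that had Y-linked genes, and control replicate 2 as the lone control, it was -2.54 (SE 0.85) with an adjusted p of 0.177 (edgeR). Across the 22 alternative settings the log2 fold change ran from -6.16 to -2.54 and the adjusted p from 2.87e-05 to 0.177, and Fos passed in 12 of them, 1 of which had a threshold of 0.05.

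**Figure D1:**
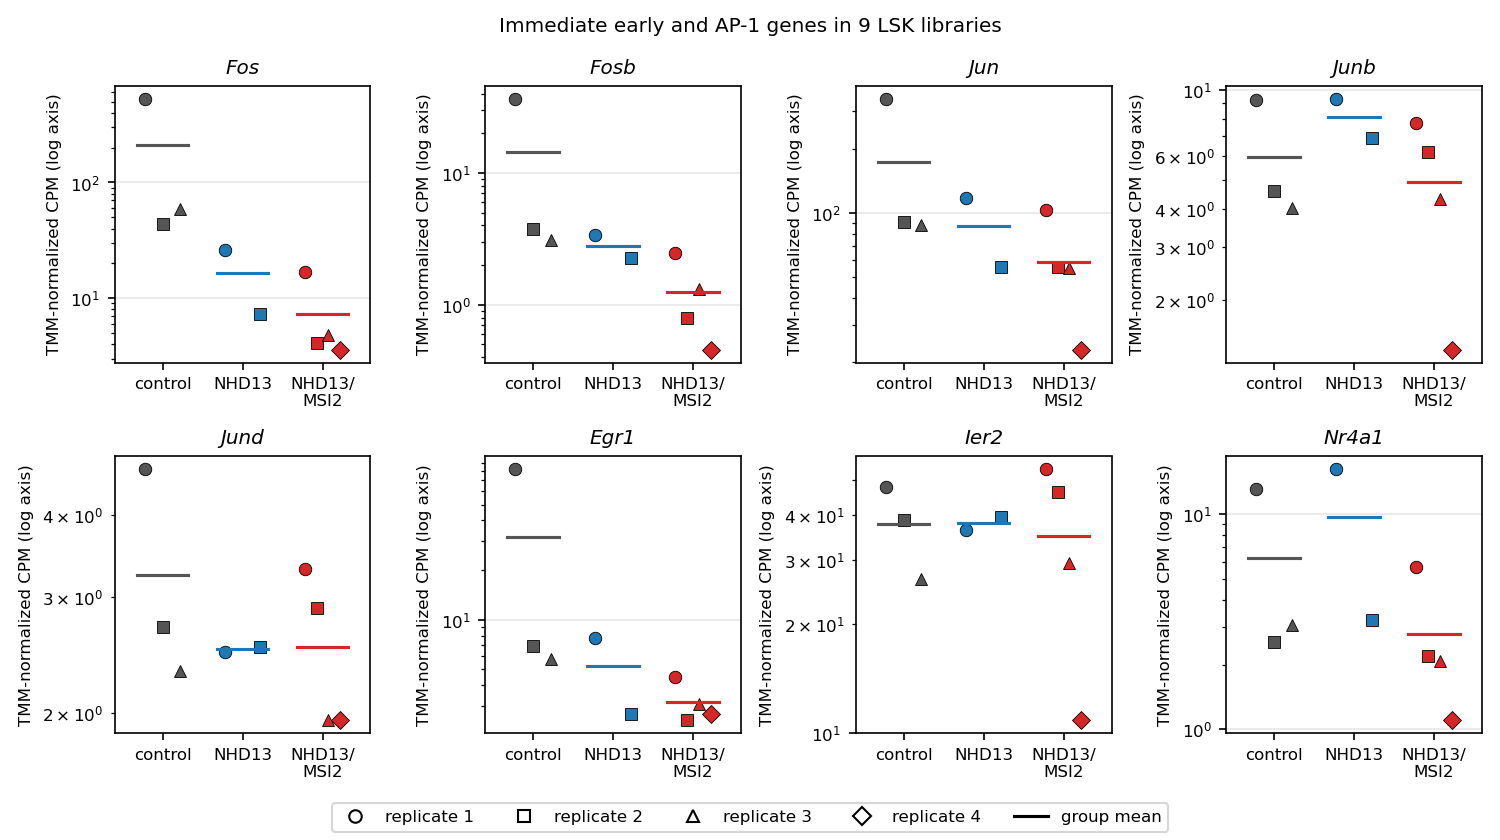
TMM-normalized CPM (log axes, a separate scale for each gene) of the 8 tested members in the 3 groups, with 1 point per library, a marker shape for each replicate number and a line at the group mean. Fos separates the 3 controls (43.9 to 531 CPM) from the other 6 libraries (3.57 to 26.0 CPM), and control replicate 1 (circle) lies far above the other controls for Fos, Fosb, Jun, Egr1 and Nr4a1.

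Fosb, a FOS relative induced by the same signals, was at 36.7, 3.75 and 3.08 CPM in the controls, at 3.36 and 2.27 CPM in NHD13 and at 2.48, 0.80, 1.31 and 0.454 CPM in NHD13/MSI2. All NHD13/MSI2 libraries were below all controls, but the lowest control and the highest NHD13 library crossed. Its log2 fold change in NHD13/MSI2 against control was -3.51 (SE 0.92) with an adjusted p of 0.0238 by edgeR's quasi-likelihood test, past 0.05 but not past 0.01. Without control replicate 1 the difference was -1.43 on the log2 scale.

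Jun encodes the main partner of FOS in AP-1. It was at 343, 90.6 and 87.4 CPM in the controls, at 118 and 55.5 CPM in NHD13 and at 103, 55.6, 55.1 and 22.8 CPM in NHD13/MSI2. Replicate 1 was the highest library of each group, and the groups overlapped. In NHD13/MSI2 against control the log2 fold change was -1.55 (SE 0.59) and did not pass (adjusted p = 0.1, edgeR's quasi-likelihood test).

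Junb and Jund, the JUN relatives, were low throughout and their groups overlapped. Junb, which limits the expansion of haematopoietic stem cells in mice, ranged from 4.04 to 9.24 CPM in the controls, from 6.92 to 9.34 CPM in NHD13 and from 1.36 to 7.76 CPM in NHD13/MSI2. Jund ranged from 2.32 to 4.70 CPM, from 2.48 to 2.52 CPM and from 1.95 to 3.31 CPM in the same groups. Their log2 fold changes in NHD13/MSI2 against control were -0.28 (SE 0.53) and -0.36 (SE 0.40). Both overlap genes on the opposite strand in GENCODE M21, Junb with Prdx2 over 173 exonic bases and Jund with the antisense gene Gm11175 over 877, and Jun overlaps its antisense gene Junos over 232, so without known strand settings these counts are uncertain.

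Egr1, the zinc finger factor, was at 82.1, 6.88 and 5.76 CPM in the controls, at 7.73 and 2.67 CPM in NHD13 and at 4.50, 2.44, 3.08 and 2.66 CPM in NHD13/MSI2. All NHD13/MSI2 libraries were below all controls, whereas NHD13 replicate 1 lay among the controls. The log2 fold change in NHD13/MSI2 against control was -3.31 (SE 0.89) with an adjusted p of 0.027 by edgeR's quasi-likelihood test, and it was -0.99 without control replicate 1.

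Nr4a1 had another order. It was at 13.1, 2.56 and 3.04 CPM in the controls, at 16.2 and 3.21 CPM in NHD13 and at 5.69, 2.19, 2.08 and 1.10 CPM in NHD13/MSI2, so NHD13 replicate 1 was the highest of the 9 libraries. Its log2 fold change of -1.81 (SE 0.85) was the lowest of the 8 members in NHD13/MSI2 against NHD13 and did not pass (adjusted p = 0.258, edgeR's quasi-likelihood test). Ier2, an early response gene that encodes a nuclear protein, was at 47.6, 38.6 and 26.6 CPM in the controls, at 36.3 and 39.4 CPM in NHD13 and at 53.5, 46.1, 29.5 and 10.8 CPM in NHD13/MSI2. Its group means were 37.6 ± 10.5 (SD, n = 3), 37.9 ± 2.18 (SD, n = 2) and 35.0 ± 19.0 CPM (SD, n = 4), and its log2 fold changes ran from -0.11 (SE 0.50) to 0.01 (SE 0.53) over the 3 comparisons.

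Egr2 and Atf3 did not pass the filter on low counts and were not tested. Egr2, a relative of Egr1, had 19, 8 and 3 counts in the controls, 2 and 1 in NHD13 and 3, 0, 1 and 1 in NHD13/MSI2, so that only control replicates 1 and 2 were above 3 counts. Atf3, a stress-induced factor of the ATF family, had 7, 4 and 0 counts in the controls, 8 and 4 in NHD13 and 0, 0, 6 and 0 in NHD13/MSI2. These counts were too few to order the groups.

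The levels of the members relative to each other were compared per kb of transcript. In the controls the mean level was 89.8 CPM per kb for Fos, 54.5 for Jun, 24.7 for Ier2 and 7.04 for Egr1, and the next were Junb at 2.59, Fosb at 2.33, Jund at 1.94 and Nr4a1 at 1.78 CPM per kb. Fos and Jun did not differ beyond their spread there, with SDs of 118 and 46.0 CPM per kb, nor did the 4 genes from Junb to Nr4a1. This order rested on control replicate 1. Without it, Jun led at 27.9 CPM per kb, before Fos at 21.9 and Ier2 at 21.4, and Egr1 at 1.41 and Fosb at 0.547 CPM per kb were below Junb at 1.88 CPM per kb. In NHD13/MSI2, Ier2 at 23.0 ± 12.5 (SD, n = 4) and Jun at 18.6 ± 10.4 (SD, n = 4) CPM per kb came first and overlapped, and Fos followed at 3.13 ± 2.72 CPM per kb (SD, n = 4). Egr2 and Atf3 were last in all 3 groups, at 0.131 CPM per kb or less.

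Over all members, NHD13/MSI2 against control was the comparison with the lowest values. All 8 tested members had a negative log2 fold change there, with a median of -1.36 against -0.01 over all 13355 genes, and 1 of the 8, Fos, passed as lower, where 6.55% of all genes did. At an unadjusted p under 0.05 in edgeR there were 4 members (Fos, Fosb, Jun and Egr1), all of them lower. Of all genes, 32.8% had such a p in either direction, and 2447 of 13355 had it as lower. Fos, Fosb and Egr1 did not overlap between the groups and were lower in NHD13/MSI2, which 20.4% of all genes also were. Without control replicate 1 the median of the members was -0.30, with 5 of 8 values negative, and none passed by edgeR's quasi-likelihood test (1 at an unadjusted p under 0.05), where 5.32% of all genes did and 27.5% were under the unadjusted 0.05. The shares in this fit count genes in either direction. NHD13 against control had 0 members called by edgeR's quasi-likelihood test or by DESeq2, with 2 members at an unadjusted p under 0.05, Fos and Egr1. Both were lower. Of all genes, 1.03% were called there and 13.5% had such a p in either direction, 779 of 13355 as lower. Only Fos did not overlap as lower, as 18.5% of all genes did. NHD13/MSI2 against NHD13, the comparison for the MSI2 allele, had 0 members called by either tool and 0 at an unadjusted p under 0.05, with 3.17% of all genes called and 21.7% under the unadjusted 0.05. The members' values ran there from -1.81 for Nr4a1 to 0.01 for Jund. The comparisons share libraries and are not independent of each other.

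**Figure D2:**
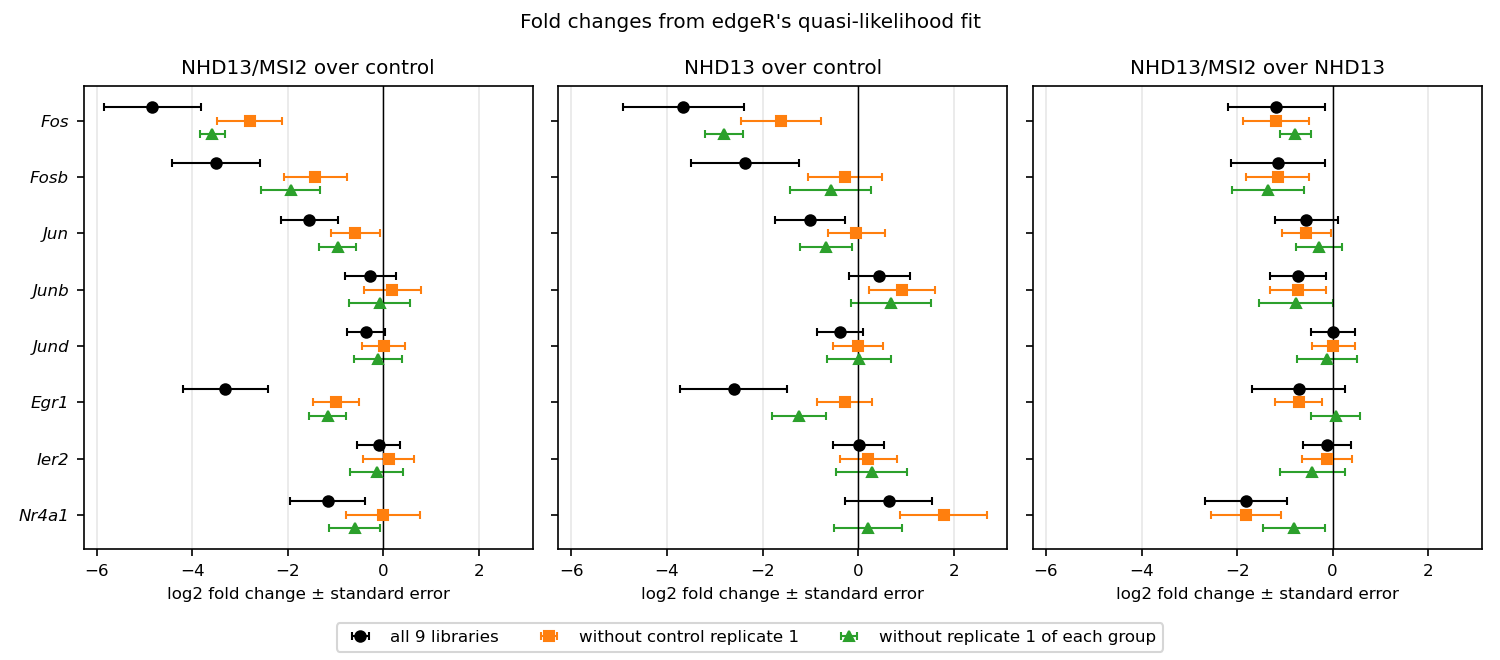
Log2 fold changes of the 8 tested members with their standard errors (horizontal bars) in the 3 comparisons, from the fit of all 9 libraries, without control replicate 1, and without replicate 1 of each group. The Fos value in NHD13/MSI2 over control is -4.84, -2.80 and -3.58 in the 3 fits, and in that comparison Fosb, Jun and Egr1 move towards 0 once control replicate 1 is left out.

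Large contrasts in these genes also lay between libraries of the same group. Control replicate 1 was 12.2-fold the level of the other controls for Egr1, 10.4-fold for Fos and 9.54-fold for Fosb, on the scale of CPM + 0.5 and geometric means, and these ranked 2nd, 5th and 6th of all 13355 genes. Nr4a1 and Jun followed at 4.13-fold and 3.84-fold. In all, 6 of 8 members were more than 2-fold higher in this library, against 2.16% of all genes. The smallest differences were those of Jund at 1.73-fold and Ier2 at 1.48-fold. Egr1, Fos, Fosb, Jun and Jund were highest of the 9 libraries in control replicate 1, as were 10.4% of all genes.

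Replicate 1 was also the highest library of each other group for most members. In all 3 groups at once this held for Fos, Fosb, Jun, Junb, Egr1 and Nr4a1, 6 of 8 members, and for 3.42% of all genes. NHD13 replicate 1 was 4.51-fold NHD13 replicate 2 for Nr4a1, 3.39-fold for Fos, 2.60-fold for Egr1 and 2.12-fold for Jun, in a pair where 11.7% of all genes were over 2-fold higher. NHD13/MSI2 replicate 1 was 3.75-fold the other 3 for Fos, 2.77-fold for Nr4a1 and 2.49-fold for Jun, with 6 of 8 members and 2.12% of all genes over 2-fold higher. NHD13/MSI2 replicate 4 was at the other end. It was the lowest of the 9 libraries for Fos, Fosb, Jun, Junb, Ier2 and Nr4a1, as it was for 25.4% of all genes, with Ier2 at 0.268 and Junb at 0.289 of the level of its group. These are descriptions of single libraries with no test, and their part in the comparisons between groups is given by the fits without them.

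**Figure D3:**
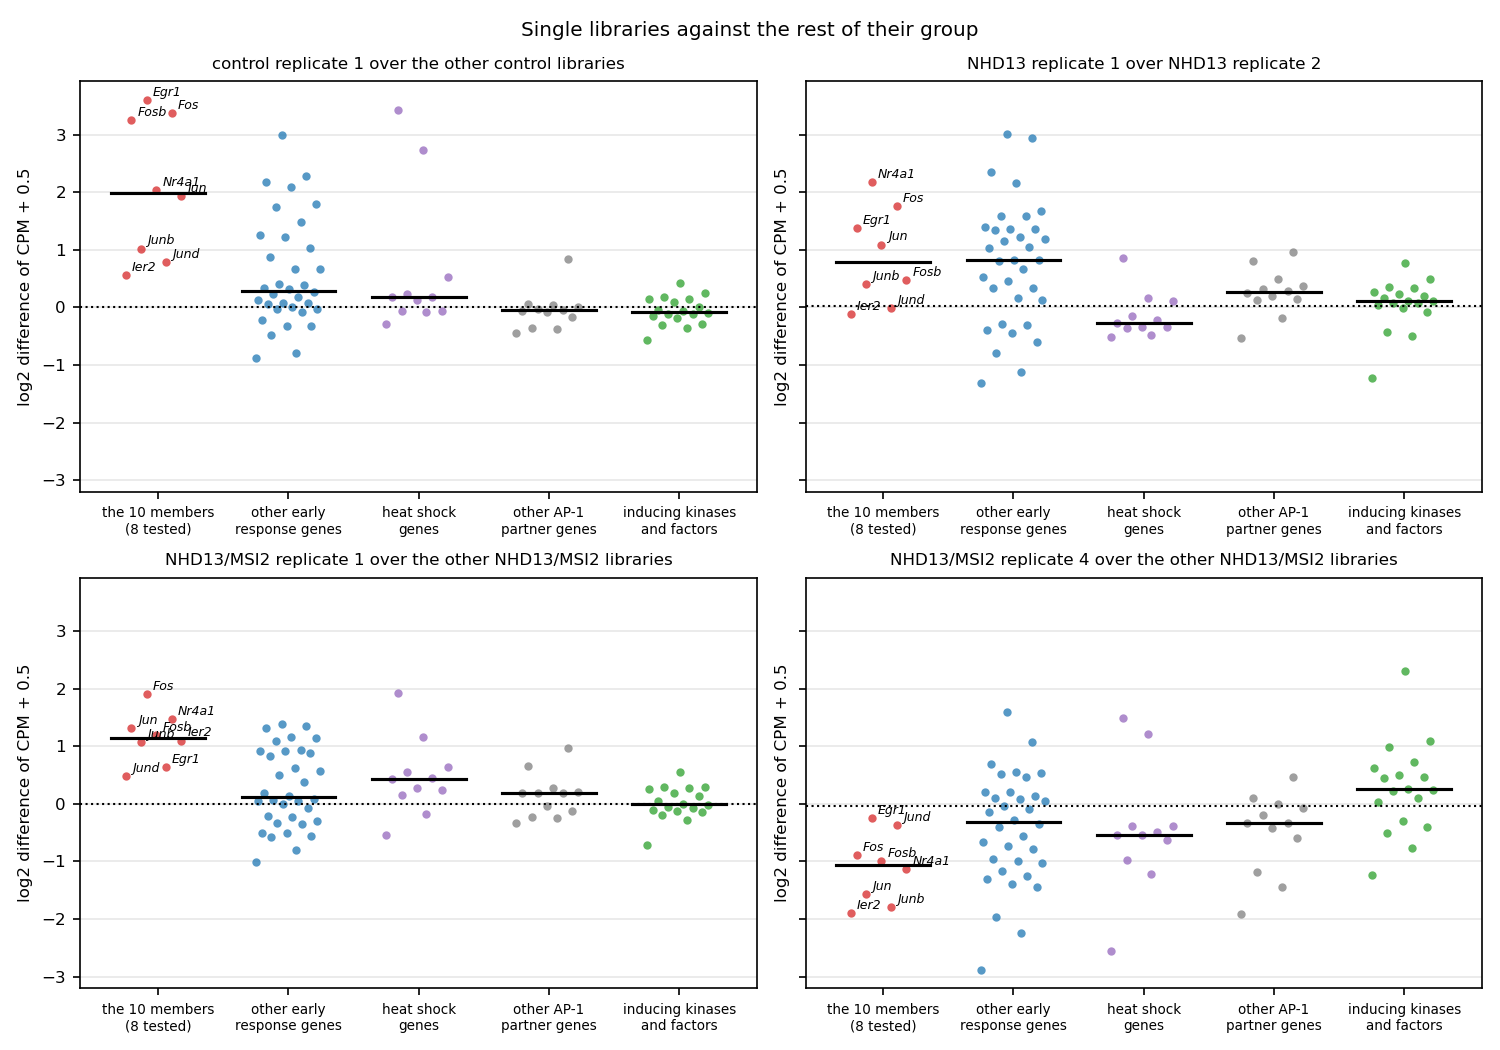
Log2 difference of CPM + 0.5 between 1 library and the rest of its group, for 4 libraries (panels), with 1 point per gene in 5 lists, a bar at the median of the list and a dotted line at the median of all tested genes. The members lie at a median of 1.99 in control replicate 1, 0.78 in NHD13 replicate 1 and 1.15 in NHD13/MSI2 replicate 1, and at -1.07 in NHD13/MSI2 replicate 4.

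Related genes were described from 4 further lists. Of 40 other immediate early and early response genes, 34 were tested and 0 were called by edgeR's quasi-likelihood test in any comparison, with 10 at an unadjusted p under 0.05 in NHD13/MSI2 against control (6 lower and 4 higher) and 32.8% of all genes below that value. DESeq2 called Klf4, Dusp1 and Ppp1r15a lower in NHD13/MSI2 against control, Csrnp1 higher and Sgk1 lower in NHD13/MSI2 against NHD13, and 0 in NHD13 against control. The median of the 34 log2 fold changes in NHD13/MSI2 against control was -0.17. In control replicate 1, 10 of the 34 were more than 2-fold higher than in the other controls, against 2.16% of all genes. In NHD13 replicate 1, 16 of the 34 were more than 2-fold higher than in replicate 2, against 11.7% of all genes. In NHD13/MSI2 replicate 1, 6 of the 34 were more than 2-fold higher than in the rest of its group, against 2.12% of all genes. Dusp1, Klf4 and Hspa1a are named here after their values were seen. Dusp1, a phosphatase that switches off MAP kinases, was at 80.1, 22.5 and 24.8 CPM in the controls, at 14.2 and 7.85 CPM in NHD13 and at 4.54 to 12.7 CPM in NHD13/MSI2, so that every control was above every other library, as for Fos. Klf4, a zinc finger factor, was 7.96-fold higher in control replicate 1 than in the other controls. Of the 12 heat shock genes, 11 were tested and 0 were called by edgeR's quasi-likelihood test or by DESeq2 in any comparison, with 0 at an unadjusted p under 0.05 against control in edgeR and 1 in NHD13/MSI2 against NHD13. Hspa1a, an inducible chaperone, was at 76.6 CPM in control replicate 1 and at 8.11 and 5.48 CPM in the other controls, a 10.7-fold difference, while its NHD13/MSI2 libraries spanned 4.48 to 50.5 CPM. Only 2 of the 11 (Hspa1a and Hspa1b) were more than 2-fold higher in control replicate 1, against 2.16% of all genes. The median log2 difference of the 11 in that library was 0.181.

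Of the other FOS, JUN and AP-1 partner genes, 0 of 12 tested were more than 2-fold higher in control replicate 1 than in the other controls. This lies near the share of all genes, 2.16%. Their median log2 difference in that library was -0.05, against 1.99 for the members. By edgeR's quasi-likelihood test 1 of the 12 passed in NHD13/MSI2 against control, and it was higher, as 4.49% of all genes were (DESeq2 called 2, Fosl2 and Atf7). Fosl2, a FOS relative that binds with JUN proteins, rose there by 1.22 on the log2 scale (SE 0.21, adjusted p = 0.00355, edgeR). It was at 10.1, 8.92 and 11.2 CPM in the controls, at 18.7 and 14.4 CPM in NHD13 and at 20.6, 29.9, 20.9 and 22.3 CPM in NHD13/MSI2. All NHD13 and NHD13/MSI2 libraries were above all controls, the opposite of Fos. The call was lost when any control was left out (adjusted p between 0.0146 and 0.0214, edgeR's quasi-likelihood test), with log2 fold changes of 1.14 to 1.30. It was also lost with the replicate number as a block (adjusted p = 0.0132, edgeR) and in all 4 fits chosen after seeing the data (adjusted p between 0.013 and 0.126, edgeR).

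A list of 18 genes that control immediate early genes held kinases, transcription factors and the corepressors of EGR proteins Nab1 and Nab2. All 18 were tested and 1 passed by edgeR's quasi-likelihood test, in NHD13/MSI2 against control. It was lower there, as 6.55% of all genes were. DESeq2 called Rps6ka3, Mapk8 and Nab2 lower there and Rps6ka3 lower in NHD13 against control. Rps6ka3, which encodes the kinase RSK2 downstream of ERK, fell by 1.30 on the log2 scale (SE 0.17, adjusted p = 0.000998, edgeR). It was at 79.6, 77.6 and 100 CPM in the controls, at 50.3 and 35.6 CPM in NHD13 and at 40.2, 35.4, 34.1 and 29.5 CPM in NHD13/MSI2, and every control was above every other library. Its row is one of those whose name was moved, and under the names as deposited the value was 0.31 with no call.

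**Figure D4:**
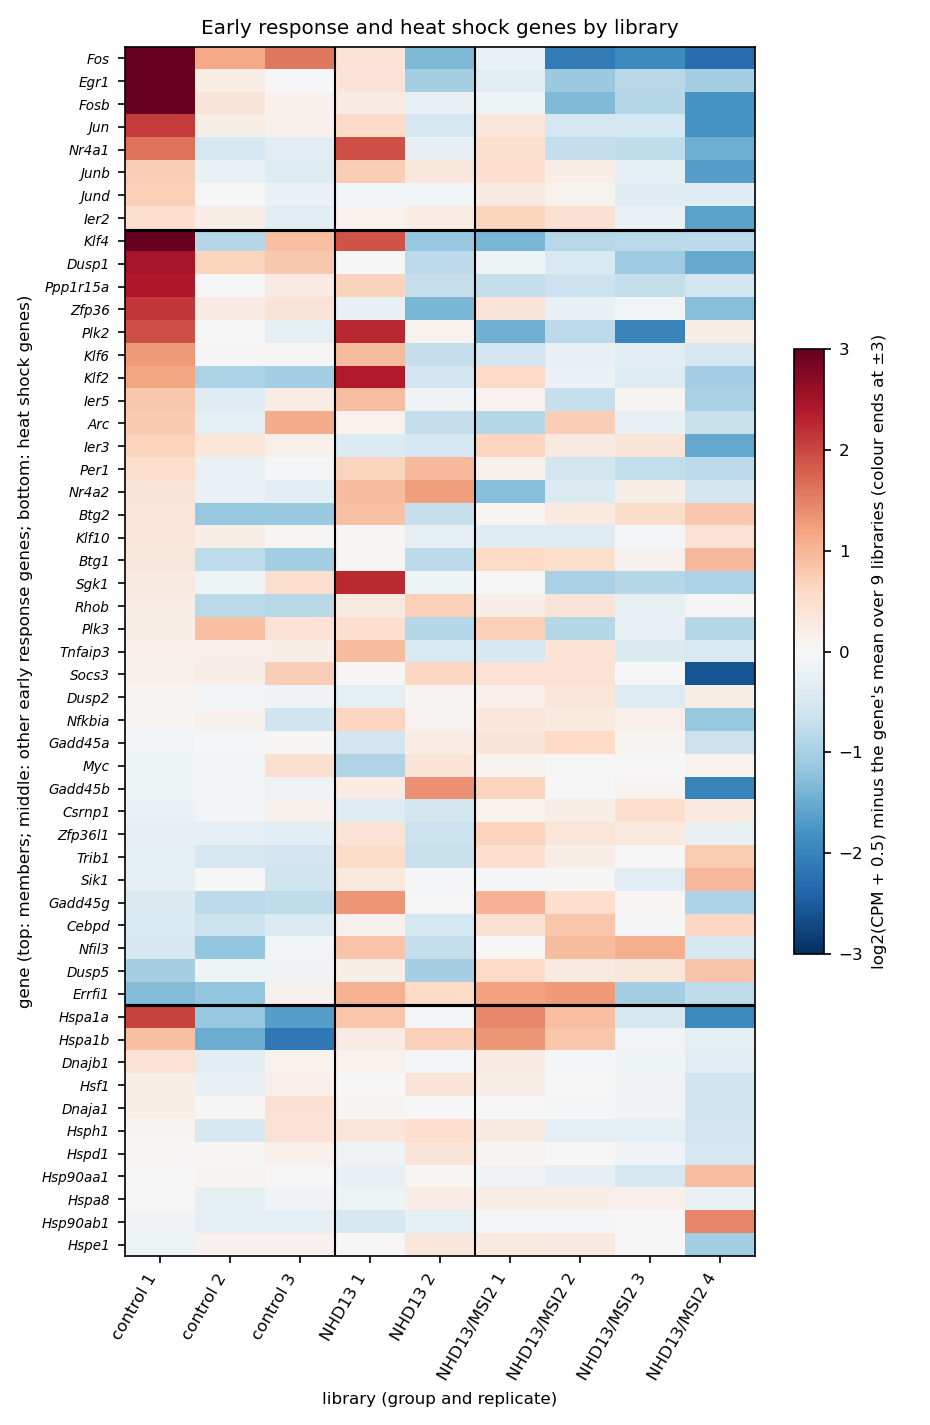
Heat map of log2(CPM + 0.5) minus the mean of the gene over the 9 libraries (colour scale from -3 to 3), with the 8 tested members at the top, 34 other early response genes in the middle and 11 heat shock genes at the bottom, each sorted by control replicate 1. The red column of control replicate 1 covers Fos, Egr1, Fosb, Jun, Klf4, Dusp1 and Hspa1a, and NHD13 replicate 1 has its own red cells at Nr4a1, Klf2, Klf4 and Plk2.

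The members differed in how closely they followed their shared pattern. The root mean square difference between a member's Z-scores of log2 CPM and the mean Z-score of the 8 members over the 9 libraries was smallest for Jun at 0.183 and largest for Ier2 at 0.647. Of 8794 other genes with a mean of at least 10 CPM, those closest to this mean pattern were Gtf3c5 (0.345), Cers2 (0.384), Icam2 (0.39), Ciz1 (0.416) and Pomt1 (0.443). Z-scores set aside the size of a difference. Gtf3c5, a subunit of a transcription factor of RNA polymerase III, spanned only 42.6 to 76.1 CPM.

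Markers of other cells moved with the groups as well. The summed level of the 7 neutrophil genes found in the table was 909 to 2490 CPM in the controls, 141 to 524 CPM in NHD13 and 200 to 625 CPM in NHD13/MSI2, higher in every control as Fos was. Within the controls it was highest in replicate 2, at 2490 CPM, and lowest in replicate 1, where Fos was highest. The 9 monocyte and macrophage genes summed to 48.5 to 72.9 CPM in the controls, 403 to 510 CPM in NHD13 and 799 to 988 CPM in NHD13/MSI2. None of these genes was at 0 in all libraries of a group. The genes of the LSK list summed to 4610 to 5050 CPM in the controls, 2650 to 3150 CPM in NHD13 and 2570 to 3420 CPM in NHD13/MSI2. In NHD13/MSI2 against control, 2 of these 5 genes were called lower by edgeR's quasi-likelihood test (Cd34 and Flt3), and 0 were called higher. Of the sorting markers, Kit had a log2 fold change of -0.76 there and Ly6a one of 1.60, neither of them called. B cell genes reached at most 63.5 CPM in the controls and at least 262 CPM in NHD13/MSI2. T cell genes were at 38.2 to 50.7 CPM in the controls, 203 to 206 CPM in NHD13 and 64.8 to 105 CPM in NHD13/MSI2, and erythroid genes at 88.1 to 146, 152 to 163 and 155 to 234 CPM. Lck made up most of the T cell sum, with means of 41.3 CPM in control, 193 CPM in NHD13 and 71 CPM in NHD13/MSI2. Cd3d, Cd3e and Cd3g had means of at most 0.345 CPM in every group. Endothelial genes were at 199 to 344, 382 to 554 and 450 to 570 CPM, and stromal genes at 29.5 CPM or less in every library. Members of a list did not all move with its sum. By edgeR's quasi-likelihood test in NHD13/MSI2 against control, 1 of 5 tested endothelial genes was called higher (Pecam1) and 2 lower (Emcn and Tek), and Pecam1 made up most of the sum, with a mean of 495 CPM. In the same comparison 3 of 8 B cell genes, 1 of 4 T cell genes and 3 of 9 monocyte and macrophage genes were called higher. Of all genes, 4.49% were called higher there and 6.55% lower. Of 7 neutrophil genes, 0 were called by edgeR, with 6 at an unadjusted p under 0.05, all of them lower. Of all genes, 32.8% had such a p in either direction, and 2447 of 13355 had it as lower. DESeq2 called 2 of the 7 lower (Ltf and Ngp). The shares of all genes called by DESeq2 are not given here, for this list or the others. The part of these cells, of donor sex and of the handling of the libraries in the levels of the immediate early genes was not tested.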

How the data were processed

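RNA of sorted LSKs was sequenced in 9 libraries. The authors deposited whole-number read counts per gene symbol, without normalization. Their processing notes name STAR, HTSeq, DESeq and mm9, with no versions, and strand settings are not given in the sources used here. The table has 24073 rows, of which 2 are blank. The names after the March genes were moved down by 2 rows: at this offset 72 of 76 ribosomal protein genes had a mean of at least 1000 counts, against 57 without it. Of the members, this concerns Nr4a1. A further 13 unnamed rows (0.0253% to 0.0323% of a library) were left out.

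Counts were filtered by filterByExpr, scaled by TMM and fitted with edgeR 4.0.16 (R 4.3.3, limma 3.58.1) by its quasi-likelihood method, all 9 libraries in 1 model, with a Benjamini-Hochberg adjusted p under 0.01 as the threshold. Standard errors are the log2 fold change divided by the root of F. CPM are TMM-normalized, and lengths and overlaps come from GENCODE M21. Libraries were grouped and numbered by their titles. Alternatives were DESeq2 1.42.0, RLE size factors, other filters and thresholds, a robust fit, the replicate block, the names as deposited, 2-group fits, leaving out each library in turn and, for levels, CPM without TMM factors. 4 further sample choices for the fits, and control levels without replicate 1, were added after seeing the data. Floors cover counting error only. The fit was tested on simulated counts.

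The members and lists were chosen with earlier results of these data known. Named from the related lists were genes past the threshold in any comparison, at most 8 per list by adjusted p, and from the rest the 5 genes most like the mean pattern of the members. The calls within the erythroid marker list are not reported here.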

Additional observations from a re-analysis of the deposited data

Results flagged for a closer look

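In the groups of 4 libraries, 12 sets of values were examined and Dixon's ratio, which by chance passes in about 1 of 20 sets, passed in 2. Fos in NHD13/MSI2 replicate 1 was at 16.9 CPM, against 3.57 to 4.80 CPM in the other 3 libraries (ratio 0.908, critical value 0.829). Atf3 in NHD13/MSI2 replicate 3 was at 0.271 CPM, from 6 counts, while the other 3 libraries had 0 counts. With 3 libraries at 0 the ratio is 1 for any count, so this set says nothing against the chance rate.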

How the results depend on the processing

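In NHD13/MSI2 against control, 1 member was called, and this count was 3 at an adjusted p under 0.05 (Fos, Fosb and Egr1), 0 without control replicate 1 and NHD13/MSI2 replicate 4 together, 0 with only the libraries that had Y-linked counts, and from 0 to 1 when 1 library at a time was left out. The cause of these changes was not tested. More of all genes also pass at 0.05 than at 0.01, and their share at 0.05 is not given here. The count of members called was 0 in every setting in the other comparisons. The only change of sign among called values was that of Rps6ka3 in NHD13/MSI2 against control, which was 0.31 with the names as deposited (adjusted p = 0.396, edgeR), a setting that gives this symbol another row of counts. Fosl2 was also not past the threshold with the replicate block, in the 4 sample choices added after seeing the data and without any 1 control (adjusted p 0.013 to 0.126 in these settings, edgeR), and Rps6ka3 was not in 3 of those 4 choices (adjusted p 0.0125 to 0.0679, edgeR). The 7 same-numbered pairs of libraries had correlations of deviations from -0.0716 to 0.194, with 2 over 0.1, and 5 of 8 libraries correlated best with one of their own number. The labels do not say that equal numbers are pairs, and the main fit did not take them as pairs. Whether libraries of the same number shared their handling was not tested. With the replicate block, Fos in NHD13/MSI2 against control was -4.08 (adjusted p = 0.00109, edgeR), and 203, 1407 and 101 genes were called in NHD13/MSI2 against NHD13, NHD13/MSI2 against control and NHD13 against control, against 423, 1474 and 138 without it. The group means of the log2 TMM factors differed by -0.21, -0.22 and -0.02 in these comparisons. No fit without such factors was run. The factor was 0.785 in NHD13/MSI2 replicate 4 and 0.969 to 0.973 in the rest of its group. Egr2 and Atf3 were limited by depth, at 19 counts or fewer in a library.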
